A study of Mus musculus with 6 samples.

Results

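The genes of the absorptive surface of the small intestine were followed in sorted crypt cells of mice given DBZ or vehicle. They comprise 41 genes listed by name for brush border enzymes, nutrient carriers, lipid handling and the structure and cytosolic enzymes of enterocytes. A member was measured where a probe set of the array carried its symbol and no other, and it was represented by its brightest such probe set. This gave 39 of the 41, out of 18193 genes measured in all. Sucrase-isomaltase (Sis) and Ggt1 had no such probe set and were not analysed here. No filter on low values was applied, so all 39 were tested.

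Total RNA was hybridised to Affymetrix 3' expression arrays, 1 array per mouse. DBZ, given to 3 mice, blocks gamma-secretase, a protease that Notch receptors need in order to signal. The other 3 mice received the vehicle, DMSO. Cells were collected after 24 h from the small intestine by sorting for high GFP. All 6 mice carried Lgr5-EGFP-IRES-creERT2, an allele that places EGFP and a tamoxifen-inducible Cre under the Lgr5 gene, which marks the stem cells at the crypt base. As dose the labels give 30 mol per kg, where a prefix of the unit appears to be missing. The sources used here give no strain, sex or age. The description field names DMSO for every array, so the groups were taken from the titles.

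Enterocytes take up nutrients through microvilli that form the brush border. Anchored hydrolases cut sugars, peptides and phosphate esters at that surface, and carriers move the products into the cell. Lipids take another path: fatty acids are bound in the cytosol, built again into triglycerides and packed with apolipoproteins into chylomicrons. In the intestinal epithelium, Notch signalling keeps progenitors on the absorptive path and away from the secretory fates. Enterocyte genes are known to be switched on as cells leave the crypt for the villus.

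The sorted cells carried high levels of absorptive transcripts in both groups. The median intensity of an array was 44.9 to 46.3, and 29 of the 39 members averaged above 1000 intensity units in vehicle arrays, as did 12.04% of all genes. Above 10000 stood 6 members, among them Fabp2, Apoa1, Vil1 and Krt20, and 0.583% of all genes. Only Lct was dim, which here means a mean below the array median in both groups. Lgr5 itself read 209 to 242 in DBZ arrays and 204 to 271 in vehicle arrays, so that its ranges overlapped. Of the landmark enterocyte genes Alpi, Sis, Lct, Vil1, Fabp1, Fabp2, Apoa4 and Slc5a1, Sis was not measured and Lct was near background. The arrays thus hold markers of enterocytes as well as of the stem cells named in the labels. An array reads the RNA of many cells at once, so fewer cells of a type cannot be told apart from less RNA per cell.

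Across the members, values in DBZ arrays leaned below those of vehicle arrays, and a single gene passed the test. Differences are given on the log2(intensity + 16) scale, DBZ minus vehicle, which understates changes of dim genes. They were tested with limma across all 18193 genes, with Benjamini-Hochberg adjustment and a threshold of 0.05. Of the 39 members 0 rose and 1 fell, the lipase gene Pnliprp2. That is 2.56% of the members, and of all genes 5.34% were called, 3.82% higher and 1.52% lower. With the test limited to genes above the median gene, 1 of 37 members and 1257 of 9096 genes were called. Limited to genes with a mean of at least 100 in 1 group, the calls were 1 of 38 members and 1421 of 9884 genes. The median difference was -0.37 over the members and -0.02 over all genes. The difference was below 0 for 34 of the 39 (87.2%), against 54.6% of all genes. The groups did not overlap for 9 members (23.1%), all lower with DBZ, against 33.2% of all genes, 15.8% lower and 17.3% higher. An unadjusted p under 0.05 was reached by 11 members (28.2%), close to the 26.3% of all genes. Of all genes 6007 were dim but of the members only 1, so these shares compare genes of unlike brightness.

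**Figure D1:**
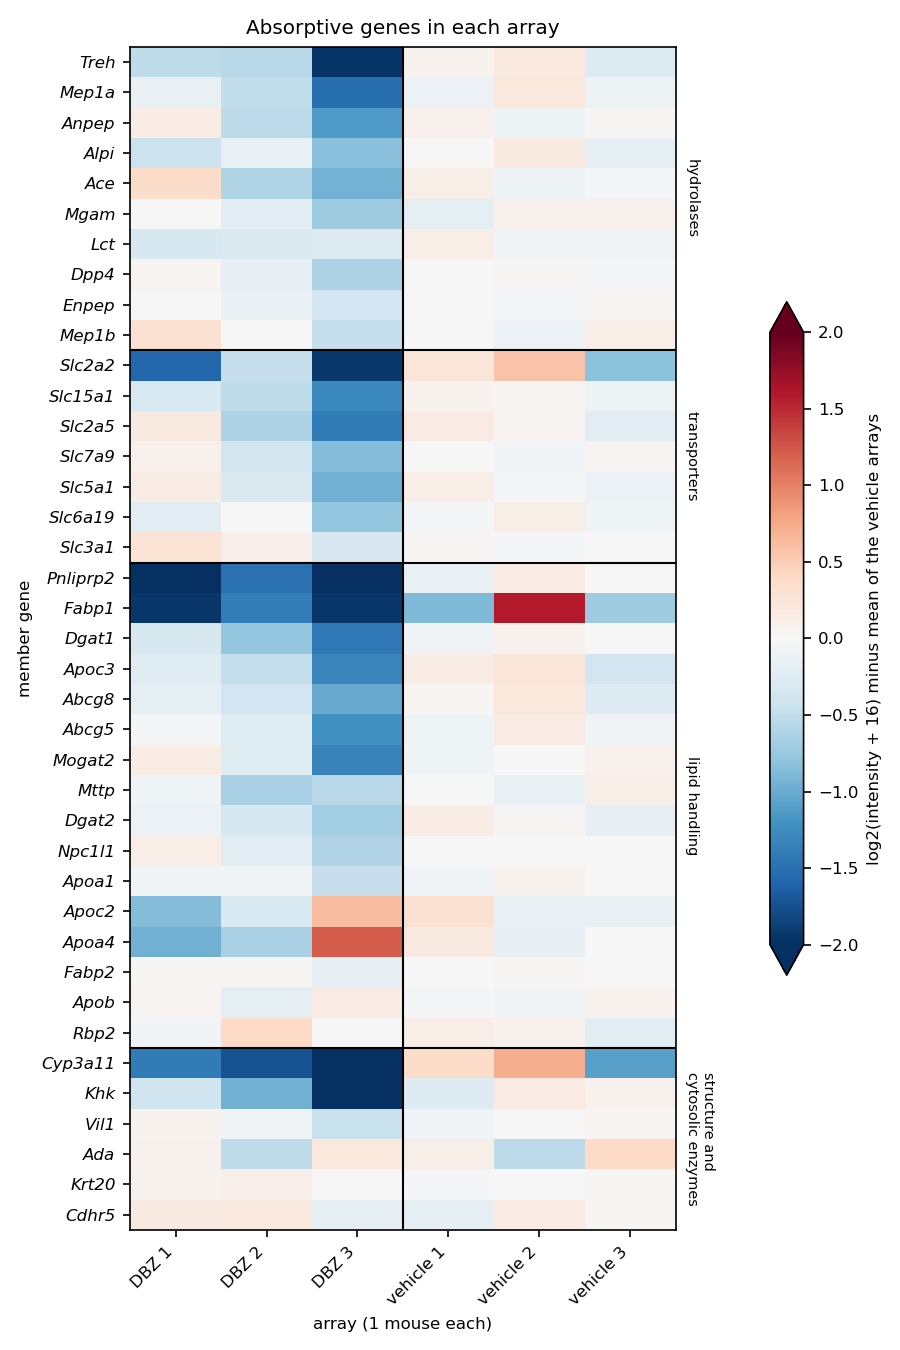
Each cell shows log2(intensity + 16) of a member gene in an array minus the mean of the 3 vehicle arrays, with DBZ arrays on the left and vehicle arrays on the right, and genes grouped by role and ordered by their difference. Colour is cut at 2 on either side. The column of DBZ replicate 3 is the lowest of the 6 arrays in 28 of 39 genes.

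The DBZ arrays did not stand apart evenly, and their spread is the plainest feature of these genes. The array of DBZ replicate 3 was the lowest of the 6 for 28 of the 39 members (71.8%), and for 28.7% of all genes. It lay below the whole vehicle range for 32 members, DBZ replicate 2 did so for 28, and DBZ replicate 1 for 14. For all genes these shares were 39.2%, 31.7% and 30.4%. DBZ replicate 1 lay above the vehicle range for 13 members (33.3%), close to the 29.5% of all genes, and within it for 12. Its median distance from the vehicle mean was -0.05, against -0.31 in DBZ replicate 2 and -0.77 in DBZ replicate 3. The single vehicle arrays stood between -0.01 and 0.02, which is near 0 in part because the reference is their own mean.

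Within groups, the SD of the log2 values was larger among DBZ than among vehicle arrays for 36 of the 39 members (92.3%), as it was for 51.7% of all genes. The median SD was 0.39 in DBZ and 0.12 in vehicle arrays for the members, and 0.10 in both groups over all genes. The exceptions were Fabp1, Ada and Lct. Without DBZ replicate 3, 26 members still had the larger SD in DBZ, with a median of 0.22, as did 40.6% of all genes. That alternative was chosen after seeing the data.

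**Figure D2:**
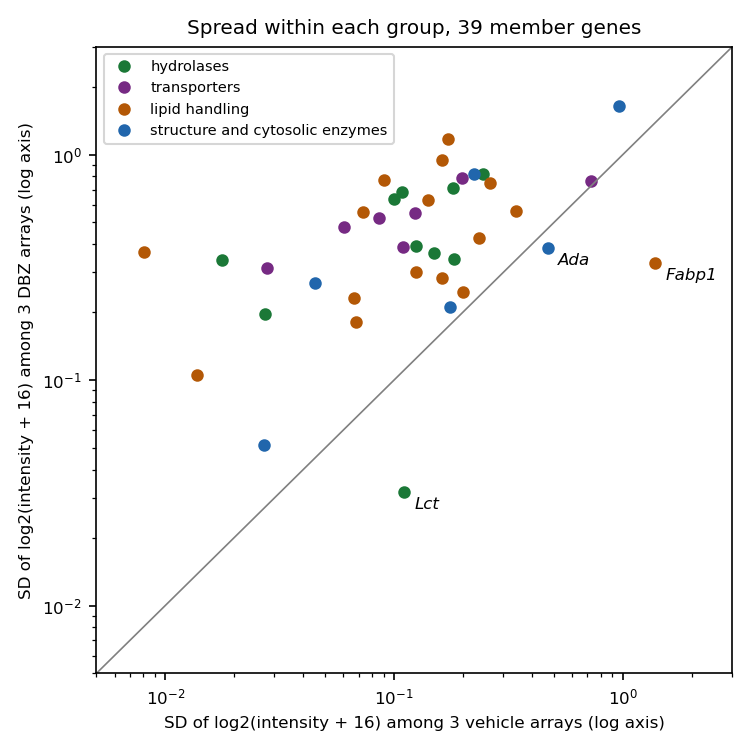
Standard deviation of log2(intensity + 16) among the 3 DBZ arrays (vertical) against that among the 3 vehicle arrays (horizontal) for the 39 member genes, on log axes, coloured by role. The line marks equal spread, and 36 points lie above it while Fabp1, Ada and Lct lie below.

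Several other cell types and a sign of RNA quality also differed between the groups, while others overlapped. Summed intensity of 11 of 11 goblet markers was 141443 to 177870 in DBZ and 110237 to 118260 in vehicle arrays. Of these 5 rose, against 3.82% of all genes, and 0 fell, with a median difference of 0.65. Zg16, and Tff3 in DBZ arrays, lay near the highest intensities of the arrays, 27330 to 29871, so the goblet sums may understate a change. For 12 of 12 enteroendocrine markers the summed intensity was 6398 to 16929 in DBZ and 3842 to 4554 in vehicle arrays. For 10 of 10 fibroblast and smooth muscle markers it was 41725 to 48900 in DBZ and 19394 to 28522 in vehicle arrays, and for 6 of 8 adipocyte markers 8197 to 19988 in DBZ and 1104 to 2668 in vehicle arrays. DBZ replicate 3, lowest for most members, had the highest of these 4 sums. The sums of 9 of 10 tuft cell markers were 1018.7 to 1844 in DBZ and 741 to 892 in vehicle arrays, also without overlap. Those of 9 of 10 hepatocyte markers were 1863 to 5584 in DBZ and 715 to 1757 in vehicle arrays, with 5 markers dim, and without the brightest, Cyp2e1, 754.5 to 1601.5 in DBZ and 563.6 to 735.5 in vehicle arrays. Of 10 stem cell markers 2 rose and 2 fell (20% each, against 3.82% and 1.52% of all genes), with a median difference of 0.04. Their sums were 8596 to 9283 in DBZ and 9983 to 12481.3 in vehicle arrays, but without Olfm4, which fell to 18.6 to 35.9 in DBZ arrays against 3627 to 5177 in vehicle arrays, they were 8566 to 9264 in DBZ and 6356 to 7986 in vehicle arrays. Both sums with a gene left out were chosen after seeing the data. Over 9 measured Paneth cell markers the sums were 35965 to 75319 in DBZ and 63263 to 76399 in vehicle arrays, which overlap. Over 9 immune markers they were 1679 to 7021 in DBZ and 1124 to 1750 in vehicle arrays, which overlap too. Yet 2 of these 9 rose, against 3.82% of all genes, and 0 fell, while 4 stood below 0. S100a8 read 308 to 2746 in DBZ and 16.9 to 24.0 in vehicle arrays. S100a9 read 259 to 2532 in DBZ and 17.8 to 23.6 in vehicle arrays. For 9 measured cell cycle genes the sums were 6116 to 9213 in DBZ and 9617 to 10248 in vehicle arrays. For 8 endothelial markers they were 1466 to 1657 in DBZ and 1112 to 1220 in vehicle arrays. Actin control probe sets have a 3' over 5' signal that rises as RNA degrades. Its ratio was 1.51 to 1.57 in DBZ arrays and 2.22, 1.61 and 1.69 in vehicle replicates 1, 2 and 3, without overlap. The Gapdh ratios overlapped. What part any of these has in the differences was not tested.

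**Figure D3:**
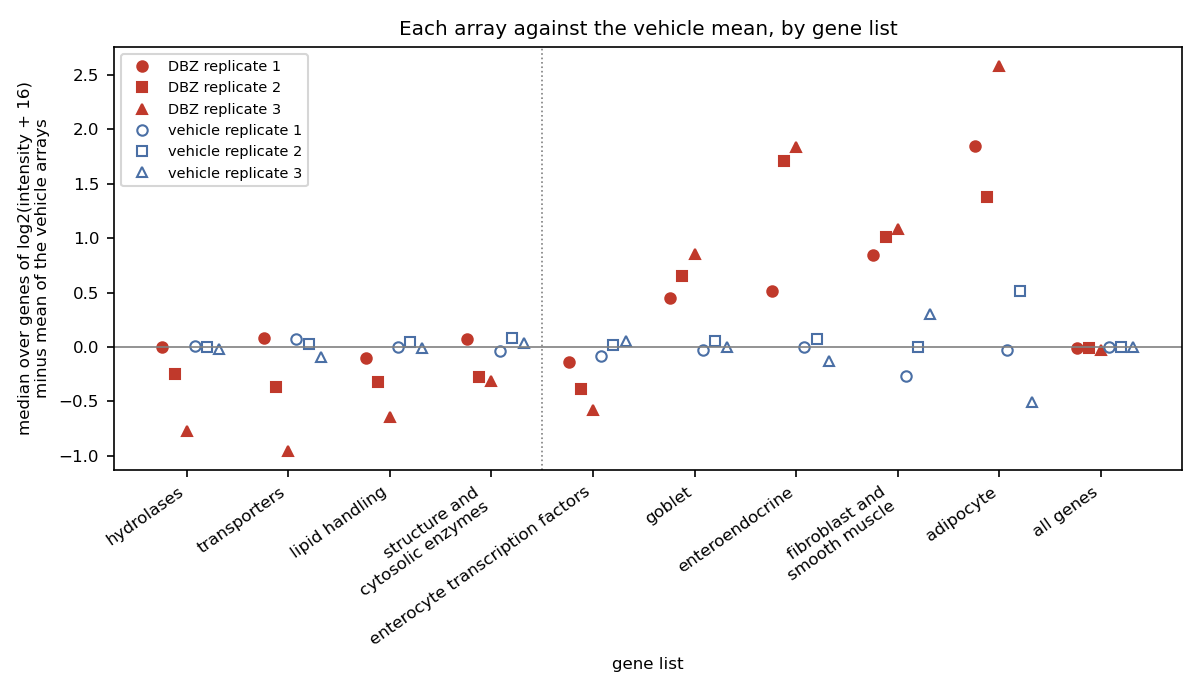
Median over the genes of a list of log2(intensity + 16) minus the mean of the vehicle arrays, for each of the 6 arrays (filled red symbols for DBZ, open blue symbols for vehicle, 1 symbol shape per replicate). The 4 roles of the absorptive genes stand left of the dotted line, where DBZ replicate 1 lies near 0 and DBZ replicate 3 lowest, at -0.31 to -0.95.

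The median differences were -0.35 for 10 hydrolases, -0.39 for 7 carriers of sugars, amino acids and peptides and -0.40 for 16 lipid handling genes. The 6 genes of structure and cytosolic enzymes had a median of -0.10 but were split. Cyp3a11 was at -2.52 and Khk at -1.12, and the others stood between -0.14 and 0.06. In DBZ replicate 3 the role medians stood at -0.77 for hydrolases, -0.95 for carriers, -0.64 for lipid handling and -0.31 for the remaining genes. In DBZ replicate 1 they were -0.0039, 0.08, -0.10 and 0.07 in that order, and in DBZ replicate 2 -0.25, -0.37, -0.32 and -0.28. The single vehicle arrays, measured from their own mean, had role medians of -0.10 to 0.08. Without DBZ replicate 3 the median over all members was -0.19, over hydrolases -0.15, over carriers -0.15 and over lipid handling genes -0.25. The sign was thus kept at a smaller size. Leaving out that array made the difference over 1.5 times smaller for 23 of the 39 members, over 1.5 times larger for 5, and turned its sign for 4. Leaving out DBZ replicate 1 made it that much larger for 13 and smaller for 1, and turned its sign for 4.

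The start regions of these genes were searched for short sequence motifs, which the choice of members did not use. RefSeq sequences of GRCm38.p6 covered 36 of the 41 genes in 42 windows, and the 250 bases before each start were searched on both strands. The letters CAAAGTCC, a form of the site of the nuclear receptor HNF4, a regulator of enterocyte genes, were found in 7 of 42 windows (16.7%) and in 1.20% of 32851 windows of all genes. The GATA letters AGATAA were in 23.8% of the windows and in 9.99% of all. The HNF1 letters GTTAAT were in 11.9% and in 6.43% of all, and the CDX letters TTTATG in 9.52% and in 10.8% of all. A TATAAA box on the gene's strand within 50 bases of the start was in 11.9%, against 2.63% of all. Matches of different motifs overlapped in 0 member windows. A match describes letters only and does not show that a factor binds.

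The windows of 4 of the 7 genes with the HNF4 letters are shown because their differences spread widely, a choice made after their values were seen, together with that of Pnliprp2, the member that passed the test. Alpi was read from chr1:87101607-87101856 (minus strand), Treh from chr9:44672983-44673232 (plus strand) and Slc3a1 from chr17:85028097-85028346 (plus strand). Cyp3a11 was read from chr5:145879855-145880104 (minus strand) and Pnliprp2 from chr19:58759473-58759722 (plus strand). Each is written 5' to 3' on the gene's strand and ends at the base before the start, with the matched letters of any of the motifs in capitals.
Alpi: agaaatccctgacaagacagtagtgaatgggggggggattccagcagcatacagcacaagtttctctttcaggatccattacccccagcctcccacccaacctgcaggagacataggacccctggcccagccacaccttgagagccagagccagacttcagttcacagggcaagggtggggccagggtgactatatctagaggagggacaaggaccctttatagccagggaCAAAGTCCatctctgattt
Treh: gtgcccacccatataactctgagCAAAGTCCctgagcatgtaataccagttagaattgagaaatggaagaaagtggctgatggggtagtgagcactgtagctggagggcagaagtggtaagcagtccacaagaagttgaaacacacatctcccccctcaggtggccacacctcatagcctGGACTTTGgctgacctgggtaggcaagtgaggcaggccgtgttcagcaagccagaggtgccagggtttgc
Slc3a1: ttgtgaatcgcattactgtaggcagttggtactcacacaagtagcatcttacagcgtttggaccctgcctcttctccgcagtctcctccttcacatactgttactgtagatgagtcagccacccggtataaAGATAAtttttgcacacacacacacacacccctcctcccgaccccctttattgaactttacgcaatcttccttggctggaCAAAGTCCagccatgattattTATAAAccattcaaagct
Cyp3a11: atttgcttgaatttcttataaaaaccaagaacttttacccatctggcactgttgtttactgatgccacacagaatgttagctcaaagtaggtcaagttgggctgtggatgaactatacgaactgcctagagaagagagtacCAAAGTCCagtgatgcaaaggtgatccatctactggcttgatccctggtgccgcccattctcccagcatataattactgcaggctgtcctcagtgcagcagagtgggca
Pnliprp2: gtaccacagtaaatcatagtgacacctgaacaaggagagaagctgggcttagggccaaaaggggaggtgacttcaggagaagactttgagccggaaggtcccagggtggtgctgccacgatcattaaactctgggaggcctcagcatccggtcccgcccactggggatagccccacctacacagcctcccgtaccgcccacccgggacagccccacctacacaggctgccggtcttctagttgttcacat

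The HNF4 letters began 19 bases before the start in Alpi, 227 and 70 bases before it in Treh, 39 in Slc3a1 and 109 in Cyp3a11. Slc3a1 also held the GATA letters and the TATAAA box. None of the motifs occurred in this window of Pnliprp2. The 6 measured genes with the HNF4 letters did not share a difference: Cyp3a11 was at -2.52, Treh at -1.01, Alpi at -0.47, Ace at -0.39, Slc3a1 at 0.01 and Rbp2 at 0.11, and none passed the test (adjusted p = 0.14 to 0.98, limma).

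Among the hydrolases, all 10 measured genes stood below 0 and 0 passed the test. Treh encodes trehalase, which splits trehalose. It read 124, 119 and 35.4 in DBZ arrays and 194, 213 and 149 in vehicle arrays. Every DBZ array lay below every vehicle array, and DBZ replicate 3 was far the lowest. The difference of -1.01 ± 0.40 (SE, n = 3 each; limma, Benjamini-Hochberg adjusted p = 0.18) did not pass the threshold. Mep1a, the alpha subunit of the metalloprotease meprin, read 6065, 4752 and 2338 in DBZ arrays and 6200.3, 7748 and 6281 in vehicle arrays. The groups were again apart, by a narrow gap at DBZ replicate 1 (-0.72 ± 0.34; limma, adjusted p = 0.25). Its other probe set gave -0.69. Without DBZ replicate 3 Treh was at -0.53 and Mep1a at -0.32.

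Alpi, the intestinal alkaline phosphatase and a marker of mature enterocytes, read 3011, 3676 and 2284 in DBZ arrays and 4100.1, 4622 and 3588 in vehicle arrays. DBZ replicate 2 reached into the vehicle range (-0.47 ± 0.19; limma, adjusted p = 0.17). Anpep, the aminopeptidase N of the brush border, read 4975, 3128 and 2049.7 in DBZ arrays and 4797, 4181 and 4559.8 in vehicle arrays. Here DBZ replicate 1 was the highest of all 6 and DBZ replicate 3 the lowest (-0.50 ± 0.30; limma, adjusted p = 0.35).

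Lactase, the enzyme of milk sugar digestion, was dim. Lct read 12.5, 13.4 and 13.8 in DBZ arrays and 23.1, 18.2 and 18.3 in vehicle arrays, apart but below the array median (-0.29 ± 0.07; limma, adjusted p = 0.072). It passed the threshold with a pseudocount of 1, with a mean-variance trend and with array weights. The smallest differences were those of Enpep and Mep1b, at -0.18 and -0.06. Enpep, the aminopeptidase A that trims acidic residues, read 14785, 13492 and 11320.5 in DBZ arrays and 14750.5, 14598 and 15144 in vehicle arrays, overlapping at DBZ replicate 1. Mep1b, the beta subunit of meprin, read 16144, 13019.7 and 9372 in DBZ arrays and 12979, 12094 and 14364 in vehicle arrays, so its DBZ values enclosed those of vehicle. The remaining members Mgam, Dpp4 and Ace, a disaccharidase and 2 peptidases, had differences of -0.31, -0.24 and -0.39. The other 3 probe sets of Dpp4 gave -0.44, -0.74 and -0.67, and the mean of its probe sets -0.52. Ace was at -0.77 without DBZ replicate 1, where it passed (limma, adjusted p = 0.024), and at -0.12 without DBZ replicate 3.

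Among the carriers 0 of 7 passed the test and 6 stood below 0. Slc15a1, which takes up di- and tripeptides, was the only carrier whose groups were apart. It read 1359.8, 1183 and 679 in DBZ arrays and 1770.1, 1714 and 1576 in vehicle arrays (-0.70 ± 0.25; limma, adjusted p = 0.15). Slc2a2, the glucose carrier of the basolateral side, read 25.6, 73.3 and 16.3 in DBZ arrays and 129.6, 167 and 53.7 in vehicle arrays. Levels were low, vehicle replicate 3 lay below DBZ replicate 2, and the difference was -1.32 ± 0.49 (limma, adjusted p = 0.16). Slc2a5, the fructose carrier, read 447, 250.2 and 139.9 in DBZ arrays and 441, 411 and 336 in vehicle arrays (-0.61 ± 0.38; limma, adjusted p = 0.36). Its highest value was in DBZ replicate 1 and its lowest in DBZ replicate 3.

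The same arrangement held for the bright carriers Slc5a1 and Slc7a9. Slc5a1, the sodium-coupled glucose carrier of the brush border, read 9745, 7206 and 4552 in DBZ arrays and 9691, 8685 and 8186 in vehicle arrays (-0.37 ± 0.27; limma, adjusted p = 0.43). DBZ replicate 1 was the highest array and DBZ replicate 3 the lowest. Slc7a9, which exchanges cystine and basic amino acids, read 8058, 5888 and 4152 in DBZ arrays and 7623, 7314 and 7953 in vehicle arrays (-0.39 ± 0.23; limma, adjusted p = 0.34). Its partner chain Slc3a1 averaged 3764 ± 783 in DBZ and 3685 ± 71.9 in vehicle arrays (SD, n = 3), a difference of 0.01 with a 95% interval of -0.37 to 0.38. Slc6a19, which takes up neutral amino acids, was at -0.34.

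**Figure D4:**
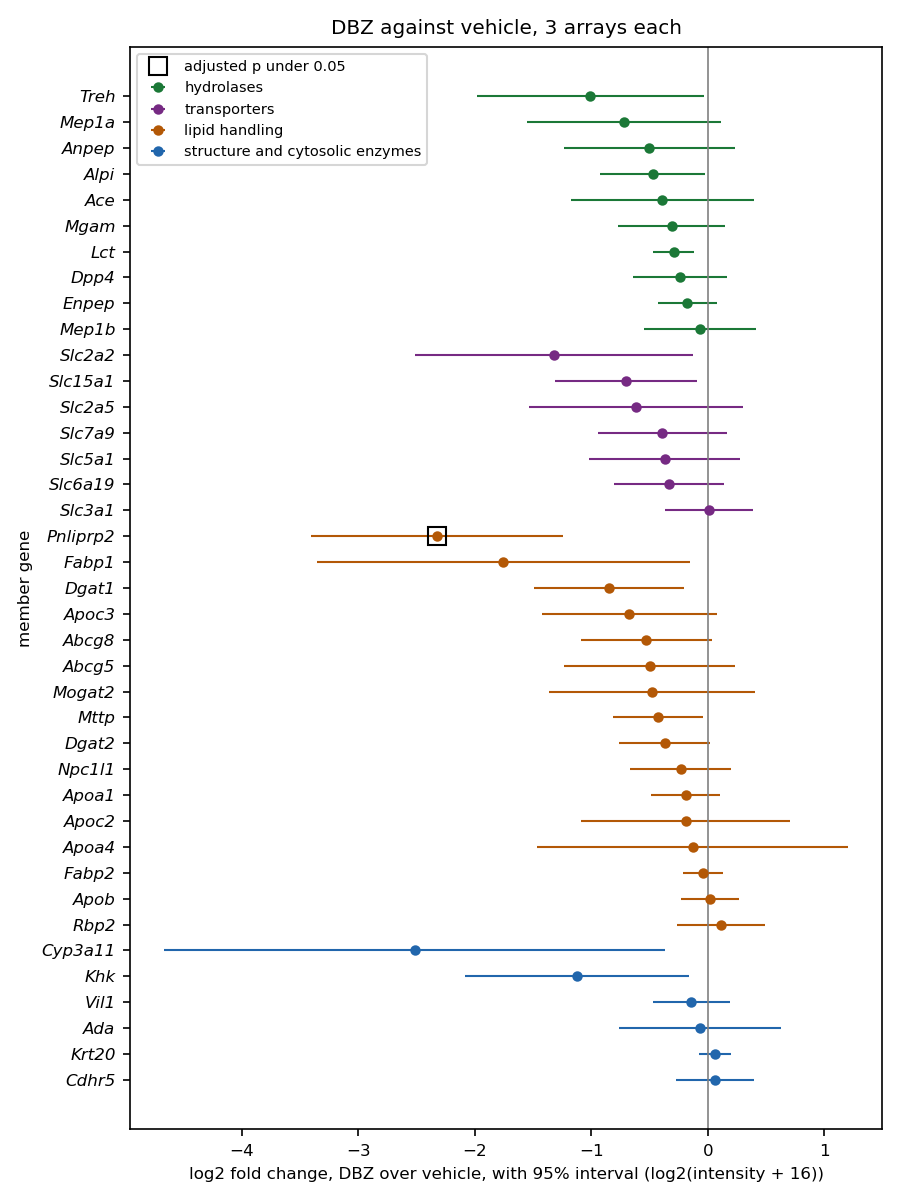
Log2 fold change of DBZ over vehicle with its 95% interval (limma, 3 arrays per group) for the 39 member genes, on the log2(intensity + 16) scale, coloured by role. The square marks Pnliprp2, the gene past the adjusted threshold, at -2.32, and 34 points lie left of 0.

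In lipid handling, 1 of 16 genes fell (6.25%, against 1.52% of all genes) and 0 rose. Pnliprp2 encodes pancreatic lipase-related protein 2, which splits triglycerides and galactolipids and is best known from the exocrine pancreas. It read 299, 1128 and 712 in DBZ arrays and 2859.5, 3579 and 3158 in vehicle arrays. All DBZ arrays lay far below all vehicle arrays, and the difference was -2.32 ± 0.45 (SE, n = 3 each; limma, Benjamini-Hochberg adjusted p = 0.0455), with a 95% interval of -3.41 to -1.24. Its other probe set read 155, 600.1 and 384 in DBZ arrays and 2902, 2238 and 1866 in vehicle arrays, a difference of -2.73. The call ended without DBZ replicate 3 (adjusted p = 0.081), without vehicle replicate 1, 2 or 3 (adjusted p = 0.12, 0.13 and 0.13) and with a pseudocount of 64 (adjusted p = 0.065), while the difference stayed between -2.74 and -1.81 over all alternatives.

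Unlike most members, Pnliprp2 was lowest in DBZ replicate 1. Colipase (Clps), the cofactor of pancreatic lipase, was looked up after the values of Pnliprp2 were seen. It read 144, 594 and 714 in DBZ arrays and 2605, 1793 and 1683 in vehicle arrays, also lowest in DBZ replicate 1 (-2.27 ± 0.58; limma, adjusted p = 0.074). The Paneth cell gene Ang4, also chosen after its values were seen and read by a probe set that may cross-hybridise with related genes, had the same lowest array. Of 9 measured Paneth markers 2 rose, Mmp7 at 1.37 and Pla2g2a at 2.18, and 0 fell. Among all genes 3.82% rose and 1.52% fell. Lyz1, Mptx1, Itln1, Nupr1, Habp2 and the dim Defa3 were also lowest in DBZ replicate 1. Any link of these markers to Pnliprp2 was not tested. Ang4 read 902, 4124 and 5511 in DBZ arrays and 21936, 15383 and 17089 in vehicle arrays (-2.70 ± 0.66; limma, adjusted p = 0.068). Markers of pancreatic acinar cells were low, with a summed intensity over 8 of 10 genes of 463 to 540.2 in DBZ and 510.1 to 551 in vehicle arrays, and 4 of the 8 were dim.

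Fabp1, the liver-type fatty acid binding protein of the proximal intestine, read 82.7, 131 and 83.1 in DBZ arrays and 191, 1133 and 216 in vehicle arrays. The groups did not overlap, but vehicle replicate 2 was several times the other vehicle arrays (-1.76 ± 0.66; limma, adjusted p = 0.16). Without that array the difference was -0.96 (limma, adjusted p = 0.12). The second probe set of Fabp1 gave -1.79 and the same outlying array. Fabp2, the intestinal form of the same family, was among the brightest probe sets and lay close to the highest intensities of the arrays, 27330 to 29871. It read 24320.1, 24477 and 21489.8 in DBZ arrays and 23941, 24320.1 and 23903 in vehicle arrays, a difference of -0.04 with a 95% interval of -0.21 to 0.13. So near the ceiling of the arrays a change may be understated.

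Dgat1 carries out the last step of triglyceride synthesis. It read 3515, 2572 and 1622 in DBZ arrays and 4188, 4637 and 4429 in vehicle arrays, with the groups apart (-0.85 ± 0.27; limma, adjusted p = 0.11). Its dimmer probe set gave -0.78. It passed with array weights and without DBZ replicate 1. Mttp, which loads lipid onto apolipoprotein B, read 2018, 1359.8 and 1458 in DBZ arrays and 2156, 1958 and 2329 in vehicle arrays (-0.43 ± 0.16; limma, adjusted p = 0.16). It too passed in those settings. Its other probe set read 2041, 1332 and 1211 in DBZ arrays and 1673, 1645 and 1724 in vehicle arrays, with DBZ replicate 1 above every vehicle array and a difference of -0.17. The related acyltransferase genes Dgat2 and Mogat2 were at -0.37 and -0.48. The other probe set of Dgat2 gave -0.05, and without DBZ replicate 3 Mogat2 was at -0.05.

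Apolipoprotein genes did not share a pattern. Apoa1, the main protein of high density lipoprotein, read 23532, 23475 and 17802 in DBZ arrays and 23405, 25662 and 24257 in vehicle arrays, near the ceiling as well (-0.19 ± 0.12; limma, adjusted p = 0.38). Apoa4, a chylomicron protein made in response to fat, read 796, 993 and 3613 in DBZ arrays and 1761, 1383 and 1554 in vehicle arrays. DBZ replicates 1 and 2 lay below all vehicle arrays and DBZ replicate 3 above them, so the mean difference of -0.13 ± 0.55 describes no array (limma, adjusted p = 0.91). The sign turned with the other probe set, at 0.33. Apoc2, the activator of lipoprotein lipase, was also highest in DBZ replicate 3, at 607, against 208 and 313 in the other DBZ arrays and 351 to 487 in vehicle arrays.

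Apoc3, which lies between Apoa1 and Apoa4 on chromosome 9 in the RefSeq gene order, was lowest in DBZ replicate 3 instead, at 410.4, with 879 and 749 in the other DBZ arrays and 794 to 1239 in vehicle arrays. Apoa1 was lowest in that array too, whereas Apoa4 was highest there. Apob, the structural protein of the chylomicron, was level at 7691 ± 941 in DBZ and 7572 ± 363 in vehicle arrays (SD, n = 3), a difference of 0.02 with a 95% interval of -0.23 to 0.27. Rbp2, the cellular retinol binding protein of enterocytes, was at 0.11.

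Among the sterol carriers, Npc1l1, which takes up cholesterol, was at -0.23, and Abcg5 and Abcg8, which together pump sterols back to the lumen, were at -0.50 and -0.53. All 3 were lowest in DBZ replicate 3, at 2629, 829 and 149, against 3989.7 to 4034, 1821 to 2174 and 263 to 369 in vehicle arrays.

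Among the genes of structure and cytosolic enzymes, 0 of 6 passed. This role took the members that fell in none of the other roles, so the membrane-bound enzyme Cyp3a11 is counted in it. Cyp3a11, a cytochrome P450 of drug and bile acid metabolism, read 528, 415 and 51.7 in DBZ arrays and 1832, 2365 and 661 in vehicle arrays. Groups were apart, with wide spread in both, and the difference of -2.52 ± 0.88 was the largest of any member (limma, adjusted p = 0.14). Without DBZ replicate 3 it was -1.57. Khk, the ketohexokinase that phosphorylates fructose, read 785, 526 and 246 in DBZ arrays and 868, 1168 and 1105 in vehicle arrays (-1.12 ± 0.40; limma, adjusted p = 0.14), again with the groups apart. With an array left out in turn Khk lay between -1.48 (limma, adjusted p = 0.046), without DBZ replicate 1, and -0.68, without DBZ replicate 3, and it also passed with array weights.

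Structural genes stayed nearer to 0. Vil1, the actin-bundling villin of the microvillus core, read 13179.7, 12053 and 9209 in DBZ arrays and 12116, 12594 and 12893 in vehicle arrays (-0.14 ± 0.14; limma, adjusted p = 0.56). Krt20, a keratin of differentiated epithelium, read 14492, 14734 and 13754 in DBZ arrays and 13528, 13662 and 14027 in vehicle arrays, a difference of 0.06 with a 95% interval of -0.08 to 0.20. Cdhr5, a cadherin of the links between microvilli, was at 0.06, and Ada, the adenosine deaminase, at -0.06. For 10 of the 39 members the 95% interval lay within 0.5 on either side of 0. These were Lct, Enpep, Slc3a1, Fabp2, Apoa1, Apob, Rbp2, Vil1, Cdhr5 and Krt20. A narrow interval does not show a small change for all of them. Lct was dim, its interval of -0.47 to -0.11 did not hold 0, and with a pseudocount of 1 it was at -0.55. Fabp2 and Apoa1 lay near the ceiling of the arrays. For 19 members it reached a difference of -1 or lower.

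**Figure D5:**
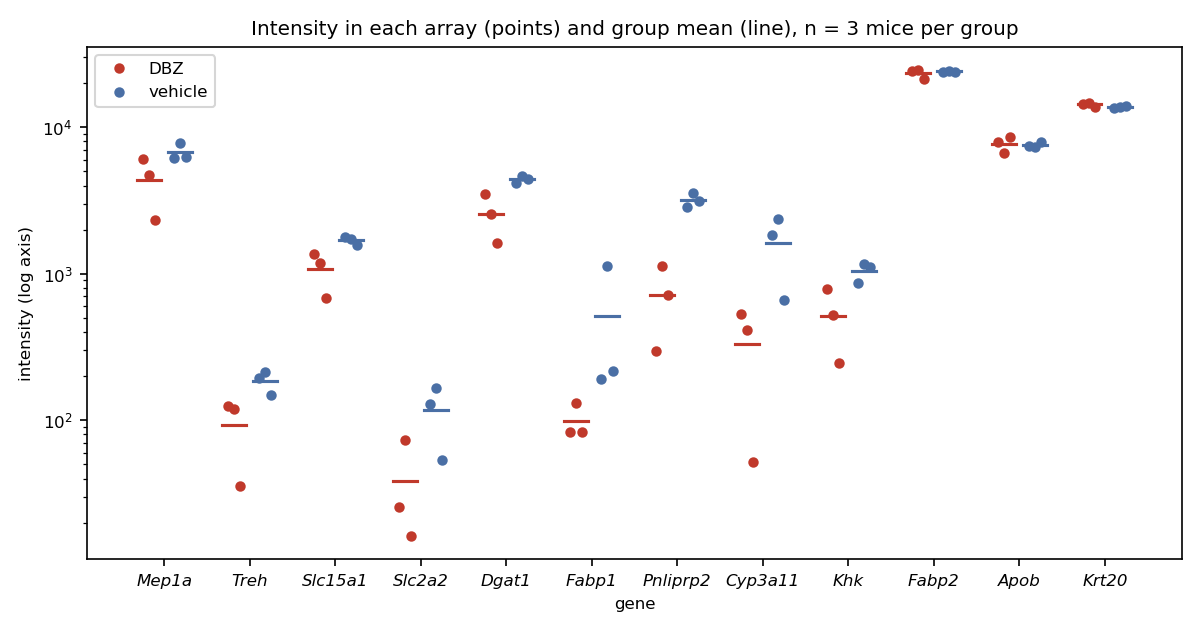
Intensity on a log axis of 12 member genes in each of the 3 DBZ arrays (red, left) and 3 vehicle arrays (blue, right), with lines at the group means. Pnliprp2, Cyp3a11, Khk, Dgat1, Slc15a1, Mep1a, Treh and Fabp1 show separate groups, Slc2a2 overlaps, and Fabp2, Apob and Krt20 overlap at nearly level means.

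Related genes were set side by side through their log2 ratio within each array, for 6 pairs chosen after the values were seen. An exact permutation test of 3 against 3 arrays cannot go below p = 0.1, so it could not decide here (lowest adjusted p = 0.2, exact permutation). The ratios are given as a description. The ratio of Mep1a to Mep1b was -1.41, -1.45 and -1.996 in DBZ arrays and -1.06, -0.64 and -1.19 in vehicle arrays. That of Slc7a9 to Slc3a1 was 0.86, 0.57 and 0.51 in DBZ arrays and 1.02, 1.01 and 1.11 in vehicle arrays. Both were lower in each DBZ array than in any vehicle array. Abcg5 and Abcg8, neighbours on chromosome 17, had a mean log2 ratio of 2.59 in DBZ and 2.56 in vehicle arrays.

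Calls in other genes of the same processes are given beside those of all genes, of which 3.82% rose and 1.52% fell. Of 15 measured genes of brush border assembly 0 rose and 0 fell, with a median of -0.19, and 12 stood below 0. The groups were apart and lower with DBZ for 0 of them and higher for 1 (6.67%), against 15.8% and 17.3% of all genes. Fscn1 was listed here as an actin-bundling protein, a function that is not particular to the brush border. It averaged 288 ± 75.8 in DBZ and 166 ± 18.3 in vehicle arrays, a difference of 0.71 ± 0.18 (limma, adjusted p = 0.073). Pdzk1, a scaffold of brush border carriers, was at -0.93 ± 0.42 (limma, adjusted p = 0.22). In 10 other brush border enzymes the groups were apart and lower with DBZ for 3 (30%) and higher for 1 (10%). Of these 10 enzymes 1 fell (10%), with a median of -0.19. This was Nt5e, the ecto-5'-nucleotidase, at 172, 276 and 239 in DBZ arrays and 579, 926 and 515 in vehicle arrays (-1.47 ± 0.26; limma, adjusted p = 0.037). Of 26 other carriers of nutrients, minerals and bile acids 0 passed, with a median of -0.17. Their groups were apart and lower with DBZ for 9 (34.6%), against 15.8% of all genes, and higher for 1 (3.85%), against 17.3%. Slc7a8, an exchanger of neutral amino acids, was at -1.04 ± 0.22 and Slc9a3, the sodium-proton exchanger of the brush border, at -1.19 ± 0.28 (limma, adjusted p = 0.0505 and 0.064).

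Of 25 other lipid absorption genes 1 fell (4%) and 1 rose, with a median of -0.06, while 1.52% of all genes fell and 3.82% rose. Here the groups were apart and lower with DBZ for 4 (16%) and higher for 5 (20%), against 15.8% and 17.3% of all genes. Rdh7, a retinol dehydrogenase, read 55.9, 39.2 and 20.2 in DBZ arrays and 418, 778 and 309 in vehicle arrays (-3.20 ± 0.39; limma, Benjamini-Hochberg adjusted p = 0.023). Mgll, which splits monoglycerides, read 428, 463 and 509 in DBZ arrays and 283, 268 and 322 in vehicle arrays (0.65 ± 0.10; limma, adjusted p = 0.028). Cidec, at 1.07, was counted both in this list and among the adipocyte markers, whose sums were higher in DBZ arrays. What part adipocyte RNA has in the values of this list was not tested. Fabp6, the bile acid binding protein of the ileum, was looked up after the low level of Fabp1 was seen. It averaged 17492 ± 3057 in DBZ and 18825 ± 681 in vehicle arrays (SD, n = 3).

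Among 17 measured transcription factors of enterocytes 1 fell (5.88%, against 1.52% of all genes) and 0 rose, with a median of -0.30. The groups were apart and lower with DBZ for 9 (52.9%), against 15.8% of all genes, and higher for 1 (5.88%), against 17.3%. Klf5, a factor of crypt epithelium, read 4538, 4133 and 3841 in DBZ arrays and 5537, 6511 and 6332 in vehicle arrays (-0.55 ± 0.09; limma, Benjamini-Hochberg adjusted p = 0.037). Hnf4a, whose motif was searched above, was at -0.15 ± 0.10 (limma, adjusted p = 0.37) and Hnf4g at -0.69 ± 0.21 (limma, adjusted p = 0.10). The sums for other cell types given above differed between the same arrays, and their part in these values was not tested.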

How the data were processed

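Per the labels, biotin-labelled RNA was made with a 3' IVT kit for Affymetrix arrays. The authors deposited 1 linear intensity per probe set and array, at a common level between the 6 arrays. How they corrected background and normalized is not given in the sources used here. No detection calls were used. Of 45101 probe sets, 64 were controls and 34958 had a single symbol, 13 of them controls. The 932 with several symbols were not used. The probe set with the highest mean log2(intensity + 16) stood for a gene.

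DBZ (3 arrays) was compared with vehicle (3 arrays) with limma 3.58.1 (R 4.3.3), by its lmFit and eBayes functions, two-sided, fitted on all 18193 genes with Benjamini-Hochberg adjustment. SE is the moderated standard error. Array medians differed by less than 0.1 on the log2 scale, so values were not normalized again. The number of arrays limits the precision. The fit was also run on simulated data with noise of equal size in both groups, unlike these members, so no support is drawn from it. Titles call the mice biological replicates.

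Members, lists and tests were chosen with earlier results of these data known. The rule for genes given in full took members past the threshold, the 3 largest differences and the 2 brightest in each role, and 8 landmarks. From the other lists it took those past the threshold or the 2 with the smallest p. Alternatives covered normalization, pseudocount, dim genes, probe set, variance model, array weights, replicate number and each array left out.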

Additional observations from a re-analysis of the deposited data

How the results depend on the processing

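The count of members past the threshold was 1 as reported. It was 2 with a pseudocount of 1, 0 with a pseudocount of 64, 2 with a mean-variance trend, 5 with array weights, 3 with the replicate number as a block and 2 at an adjusted p under 0.1. It ranged from 0 to 5 when each array was left out, with 5 without DBZ replicate 1, 1 without DBZ replicate 2 and 0 without each other array. Over all genes the count of 972 became 2032, 217 and 352 without DBZ replicate 1, 2 and 3, and 49, 19 and 38 without vehicle replicate 1, 2 and 3. It was 2690 with array weights and 440 with a pseudocount of 64. The replicate block added Cyp3a11 (adjusted p = 0.039) and Slc2a2 (adjusted p = 0.041) to Pnliprp2, with 889 calls over all genes. Deviations of same-numbered arrays from their group means correlated at -0.0086, 0.25 and 0.20 for numbers 1, 2 and 3. DBZ replicate 2 correlated at -0.29 with vehicle replicate 3, and DBZ replicate 3 at -0.18 with vehicle replicate 2. The best value of DBZ replicate 1 was 0.014, with vehicle replicate 3. With 3 arrays per group these values cannot show whether same-numbered arrays share more than a number. The cause of these changes in the counts was not tested.

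Of the 39 members 29 kept their sign under all 19 alternatives. With quantile normalization Slc3a1 was at -0.047 and Cdhr5 at -0.00057, and with array weights Apob was at -0.10. Apoa4 was at 0.10 as the mean of its probe sets and 0.33 without _x_at probe sets or with the most variable one. With arrays left out in turn the range was -0.25 to 0.14 for Mep1b, -0.12 to 0.18 for Slc3a1, -0.073 to 0.020 for Fabp2, -0.80 to 0.28 for Apoa4, -0.061 to 0.12 for Apob, -0.59 to 0.15 for Apoc2, -0.027 to 0.20 for Rbp2, -0.25 to 0.0084 for Vil1, -0.031 to 0.18 for Cdhr5 and -0.32 to 0.15 for Ada. The median over members stayed between -0.50 and -0.19, the lower end without DBZ replicate 1 and the upper without DBZ replicate 3.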
